A study of Rattus norvegicus with 8 samples.

Results

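Ulk2 and 8 partner genes that start autophagy were followed in the hypothalamus (the mediobasal part, by the series description) of rats that had inhaled cannabis vapor. The members were Ulk1, Ulk2, Atg13, Atg101, Rb1cc1, Becn1, Atg14, Atg5 and Atg7, taken as every row whose gene symbol equals one of these names. All 9 were found among the 18003 gene symbols in the files, on 54 of the 98356 alternative polyadenylation (APA) sites. An APA site is a position where transcripts end and receive a poly(A) tail, and WTTS-Seq (whole transcriptome termini site sequencing) counts transcripts by reading those ends. The tissue came from adult male Long-Evans rats, 4 placed in a chamber with vaporized cannabis plant matter (exposed rats) and 4 air-treated controls placed in the same kind of chamber with an empty vaporizer. Both groups had been habituated to the chambers and had no food in the hour between exposure and tissue collection. The gene list was drawn up with the cannabis against air results already known, so for these 9 genes that comparison is given as a description. Where a site or total passed a P threshold in the fits of all genes, this is stated and nothing is read from it.

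Autophagy is the pathway by which a cell wraps its own cytoplasm in a double membrane and delivers it to the lysosome for breakdown. It begins when the protein kinase ULK1 or its relative ULK2, bound to ATG13, ATG101 and RB1CC1 (also called FIP200), is released from inhibition by the nutrient sensor mTOR or activated by the energy sensor AMPK. A lipid kinase complex built on Beclin 1 and ATG14 then marks the membrane, and ATG7 and ATG5 act in the conjugation steps that attach Atg8 proteins such as LC3 to it. In the hypothalamus, autophagy in appetite neurons is known to respond to fasting.

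The 8 libraries held from 1159811 to 3706778 reads on sites, and air control replicate 4 had the fewest. Values are normalized counts, which are reads on a site scaled by library size, and 1 read was worth from 0.664 to 1.99 normalized counts. Depth limited most member sites: the median site had 45.5 reads over all 8 libraries, 12 of the 54 had a mean of at least 10 normalized counts, and 1 had a mean of at least 100. Markers of the labelled tissue were found, including 9 of the 10 listed hypothalamic peptide genes. Choroid plexus markers were scarce, with summed counts of at most 19.2 in controls and 28.6 in exposed rats. Of 3 pituitary markers 1 was measured (Tshb), and it varied widely, from 11.4 to 122 in controls and from 2.95 to 92.3 in exposed rats. The summed hypothalamic peptide markers ranged from 3193 to 5550 normalized counts in controls and from 7307 to 9373 in exposed rats, without overlap. The 9 peptide genes measured include Avp and Oxt, and the study listed an abundant site of each as higher after exposure. This sum was not split by gene here, so it is not a measure of hypothalamic neurons as a whole. The 3 endothelial markers ranged from 81.1 to 88.0 in controls and from 93.0 to 115 in exposed rats. General neuron markers overlapped, at 1427 to 2324 in controls and 1230 to 2192 in exposed rats. The part of these marker differences in the values below was not tested. In bulk tissue, fewer cells of a type and less RNA per cell cannot be told apart.

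Reads at the most used site assigned to Ulk2 were scarce after cannabis, while the summed counts of the gene's other sites overlapped between groups. In the study a site with a gene symbol could also be intronic or antisense, and the class of the sites here was not examined. Ulk2 encodes one of the kinases that start autophagy. Its 14 sites were numbered by their mean over all libraries, and site 1 had the highest. In normalized counts, site 1 had 84.1, 45.5, 59.1 and 228 in air control replicates 1, 2, 3 and 4. In cannabis replicates 1, 2, 3 and 5 it had 0, 1.33, 0 and 39.2. Every exposed rat was below every control, 3 of the 4 were at or near 0, and cannabis replicate 5 was close to the lowest control. These values come from 115, 38, 88 and 115 reads in controls and from 0, 2, 0 and 51 reads in exposed rats, so that the empty libraries are compatible with up to 3 reads each, or 3.73 and 2.95 normalized counts. The group means were 104 ± 84.3 and 10.1 ± 19.4 normalized counts (SD, n = 4), controls 10.3-fold above exposed rats. On the log2(normalized count + 1) scale the difference was -4.79 with a standard error of 0.84 in the limma fit of all sites. That standard error draws on the variance of all sites, and the within-group SD of this site on the same scale was 1.92.

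As a share of all Ulk2 reads, site 1 held 59.0%, 44.7%, 41.9% and 74.2% in the 4 controls. In exposed rats it held 0%, 1.59%, 0% and 34.9%. Exact (Clopper-Pearson) 95% intervals, which cover counting error only, ran from 33.9% to 55.9% in air control replicate 2 and from 35.2% to 48.9% in replicate 3. In cannabis replicate 5 the interval ran from 27.2% to 43.3%, so this rat overlapped both of these controls in share within counting error. In cannabis replicates 1 and 3, with 0 of 44 and 0 of 71 Ulk2 reads, the upper ends of these intervals were 8.04% and 5.06%, and the limits that 3 reads would give were 6.82% and 4.23%. The mean share was 54.9% ± 14.9 in controls and 9.13% ± 17.2 in exposed rats (SD, n = 4).

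The other 13 Ulk2 sites were each low and showed no such gap. Together they had 58.5, 56.3, 81.9 and 79.4 normalized counts in controls and 54.6, 82.4, 69.9 and 73.0 in exposed rats. The groups overlapped over almost their whole range, with means of 69.0 ± 13.5 and 69.96 ± 11.5 (SD, n = 4). Site 2, with 21.5 normalized counts on average, had 13.2, 19.2, 34.9 and 11.9 in controls and 7.45, 40.5, 21.6 and 23.0 in exposed rats. Its log2 difference was 0.13 (standard error 0.51), and sites 2 to 14 ranged from -0.66 to 0.38, with 8 lower and 5 higher in exposed rats. In none of these 13 sites did the groups separate.

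The Ulk2 total over all 14 sites therefore carried the site 1 difference in diluted form. It was 143, 102, 141 and 308 normalized counts in controls and 54.6, 83.7, 69.9 and 112 in exposed rats. Cannabis replicate 5 was above air control replicate 2, so the totals overlapped, and air control replicate 4 was far above the rest. The means were 173 ± 91.7 and 80.1 ± 24.4 (SD, n = 4), and the log2 difference of totals was -1.02 (standard error 0.33), against 0.0245 without site 1. The stacked plot of Ulk2 sites by library shows the dark site 1 part beside the remaining sites.

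**Figure D1:**
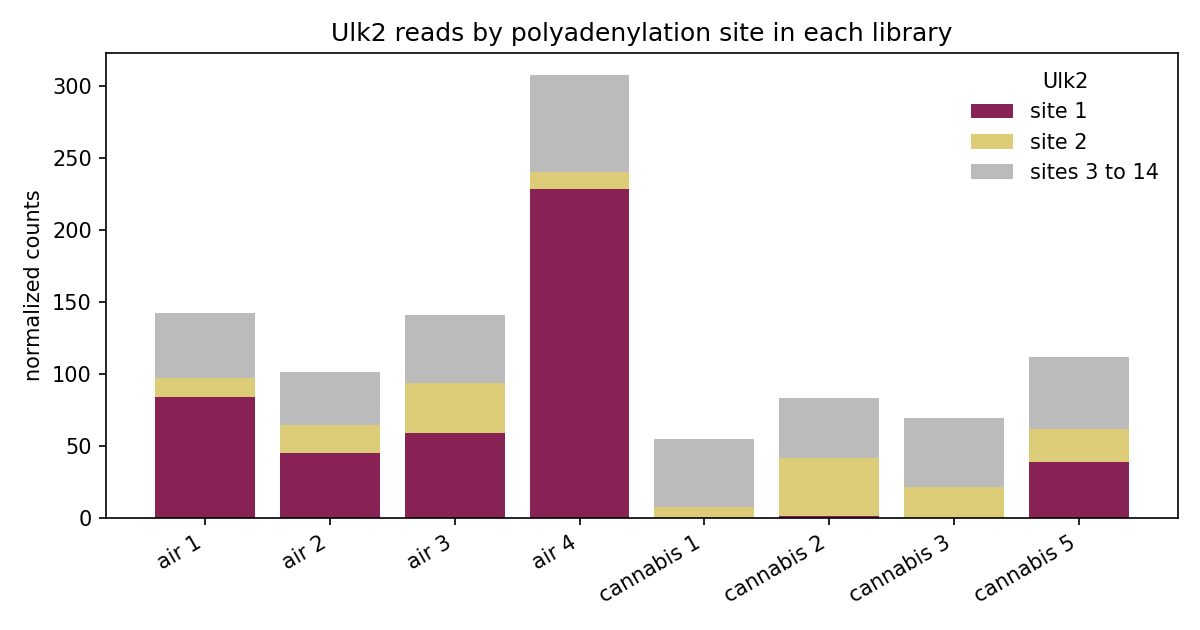
Stacked bars give the normalized counts of Ulk2 in each of the 8 libraries (horizontal axis: group and replicate number), split into site 1, site 2 and sites 3 to 14. Site 1 makes up from 45.5 to 228 normalized counts in controls and from 0 to 39.2 in exposed rats, while the other sites together stay between 54.6 and 82.4 in every library.

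Among all 54 member sites, Ulk2 site 1 was the single one with unadjusted P under 0.01 in limma. The study used that threshold with DESeq2, and DESeq2 on the recovered reads put 0 of the 54 sites under 0.01 and 1 under 0.05, with a log2 difference of -3.35 (standard error 1.69) at Ulk2 site 1. Across all 98356 sites 0.381% were under 0.01 in limma, 0.258% with the lower level in exposed rats. DESeq2 put 310 of all sites under 0.01, 66 higher and 244 lower, and 1829 under 0.05. Ulk2 site 1 was also the single member site whose normalized counts did not overlap between groups. Of all sites 2% did not overlap, 1.01% with exposed rats lower and 0.992% with them higher. Since this contrast chose the list, nothing is read from either count. An adjusted P under 0.1 in limma, reached by 0.00102% of all sites, was reached by 0 of the 54. With edgeR and DESeq2 on the recovered reads 0 of the 54 reached it, where 1 and 4 of all sites did. In the fit blocked on replicate number 1 of the 54 reached it, among 7 of all sites. Air control replicate 4 and cannabis replicate 5 have no partner in that fit and add nothing to its difference. Without cannabis replicate 5 it was 1 of the 54, among 5 of all sites, so neither pass draws on that rat. In limma 1 of the 54 had an unadjusted P under 0.05, as 3.03% of all sites did. The log2 differences of the other 53 sites ran from -0.93 to 0.73, with 34 lower and 19 higher and a median of -0.18, beside a median of 0.01 over all sites. The plot of all member sites shows this one point far below the band that holds the rest.

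**Figure D2:**
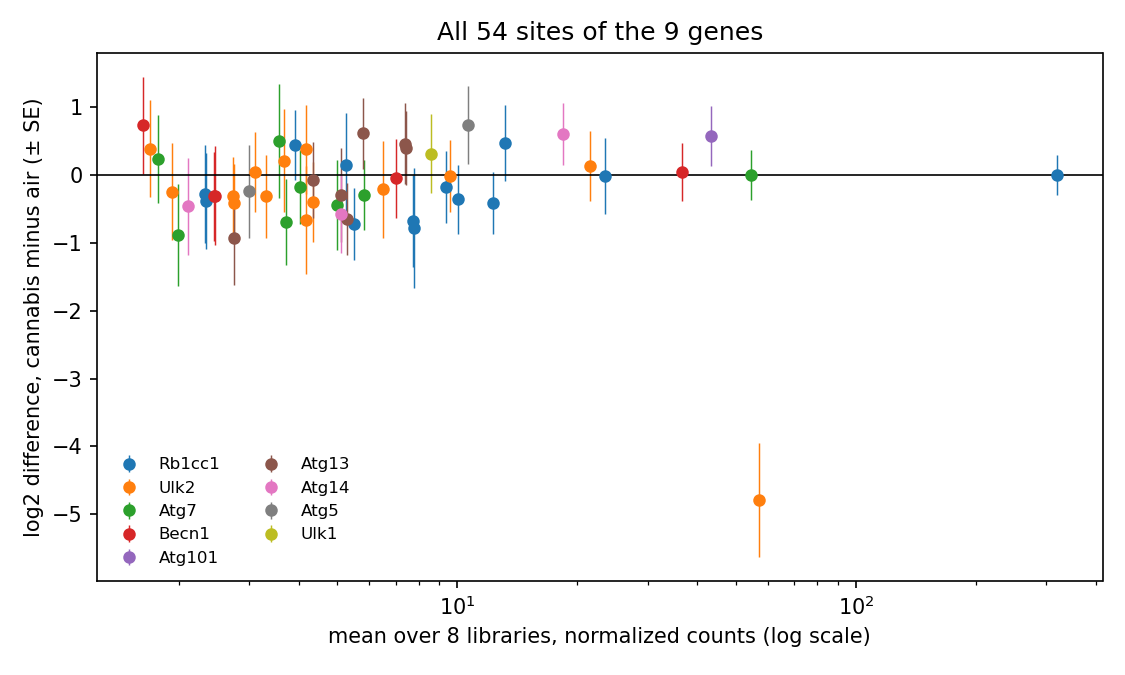
Each point is 1 of the 54 sites of the 9 genes, with the mean over 8 libraries in normalized counts on a log axis (horizontal) and the log2 difference, cannabis minus air, with its standard error (vertical). Ulk2 site 1 lies at -4.79, and the other sites lie between -0.93 and 0.73.

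The partners of ULK2 in its kinase complex showed no such pattern. Ulk1, the closest relative of Ulk2, was measured on 1 site with 86 reads in all, the lowest level of the 9 genes. It had 13.2, 8.38, 6.71 and 1.99 normalized counts in controls and 4.97, 20.6, 6.89 and 6.14 in exposed rats. The groups overlapped, cannabis replicate 2 was the highest of all, and the log2 difference was 0.31 with a standard error of 0.57.

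Rb1cc1, the large scaffold of the complex, was the most abundant member. Its 13 sites summed to 349, 407, 418 and 528 normalized counts in controls and 507, 325, 397 and 443 in exposed rats. Both groups covered nearly the same range, with means of 426 ± 74.7 and 418 ± 76.7 (SD, n = 4) and a log2 difference of totals of -0.03 (standard error 0.21). Site 1 of Rb1cc1 held 74.4% ± 8.30 of the gene's counts (SD over 8 libraries). Site 1 had from 219 to 451 normalized counts in controls and from 218 to 442 in exposed rats, highest in air control replicate 4 and cannabis replicate 1, the libraries with the fewest reads in their groups. The other 12 Rb1cc1 sites were each well below it, the next one with 20.5 ± 3.15 and 26.3 ± 15.4 (SD, n = 4).

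Atg13, the adaptor that links the kinase to RB1CC1, had its reads spread over 7 sites. Its most used site held 19.2% of the gene's counts on average and had 6.31 ± 2.83 normalized counts in controls and 8.54 ± 4.44 in exposed rats (SD, n = 4). The Atg13 total was 38.7, 35.9, 34.9 and 39.7 in controls and 33.5, 36.5, 58.1 and 27.7 in exposed rats. Controls lay close together, exposed rats lay on both sides of them, and the log2 difference of totals was 0.01 (standard error 0.29). Atg101, which stabilizes ATG13, had 1 site with 29.2, 23.9, 47.7 and 31.8 normalized counts in controls. Its values in exposed rats were 64.6, 73.7, 19.7 and 56.1, so that 3 of the 4 were above every control and cannabis replicate 3 was below every control. The log2 difference of Atg101 totals, 0.57 (standard error 0.39), was the largest in the upward direction among the 9 totals.

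In the lipid kinase complex, the totals of Becn1 and Atg14 overlapped between the groups. Becn1 encodes Beclin 1, the scaffold of the complex, and its 5 sites summed to 48.2, 44.3, 63.8 and 45.7 normalized counts in controls and 32.3, 74.4, 46.2 and 46.1 in exposed rats. The lowest and the highest Becn1 totals were both in exposed rats, and the log2 difference was -0.07 (standard error 0.29). Its site 1 held 71.4% ± 12.9 of the counts (SD over 8 libraries). Atg14, which directs the complex to the site where autophagosomes form, had 3 sites with totals of 28.5, 19.2, 24.2 and 21.8 in controls and 18.6, 30.6, 21.6 and 40.7 in exposed rats. The groups overlapped, with a log2 difference of totals of 0.19 (standard error 0.33). Site 1 of Atg14 held 60.1% ± 11.5 of the gene's counts in controls and 80.2% ± 6.43 in exposed rats (SD, n = 4), from 176 reads over all libraries. The shares did not overlap, at 45.5% to 69.4% in controls and 73.3% to 86.4% in exposed rats, although the counts of that site did. Atg14 had from 11 reads (air control replicate 4) to 53 reads (cannabis replicate 5) per library, and no counting intervals were computed for these shares.

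The totals of both conjugation genes overlapped as well. Atg7, the activating enzyme of the conjugation steps, varied least of the 9 genes, with a coefficient of variation of 12.3% over all libraries. Its 8 sites summed to 89.2, 69.4, 93.3 and 83.4 normalized counts in controls and 67.1, 71.1, 83.6 and 86.8 in exposed rats. The ranges overlapped and the log2 difference of Atg7 totals was -0.12 (standard error 0.22). Atg7 site 1 held 67.1% ± 9.66 of the counts (SD over 8 libraries), with 55.0 ± 15.9 normalized counts in controls and 54.1 ± 12.4 in exposed rats (SD, n = 4). Atg5, which is joined to ATG12 and helps attach Atg8 proteins to the membrane, had 2 sites and 129 reads in all. Atg5 totals were 10.2, 5.99, 25.5 and 7.94 in controls and 17.4, 16.6, 14.8 and 10.8 in exposed rats, with the cannabis values inside the control range. The log2 difference of Atg5 totals was 0.42 (standard error 0.44).

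Among the 9 totals, Ulk2 was the single one with unadjusted P under 0.01 in limma, where 0.278% of all gene totals passed and 0.178% did so with exposed rats lower. None of the 9 totals had groups without overlap, where 1.98% of all gene totals did. The 8 totals other than Ulk2 had log2 differences from -0.12 to 0.57, 5 higher and 3 lower, with a median of 0.10 beside 0.05 over all gene totals. As with the sites, the list was chosen on this contrast and nothing is read from these counts. The Ulk2 total was under 0.01 in 7 of 15 alternatives and not in the other 8, which were the minimum mean of 10, the replicate block and 6 of the 8 fits with a library left out (all but those without air control replicate 2 and without cannabis replicate 5). Without cannabis replicate 3, the exposed rat with Atg101 below every control, Atg101 was the single one of the 9 under 0.01. In that fit 61 of all 18003 gene totals were under 0.01. Nothing is read from these passes either, since the same contrast chose the list.

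**Figure D3:**
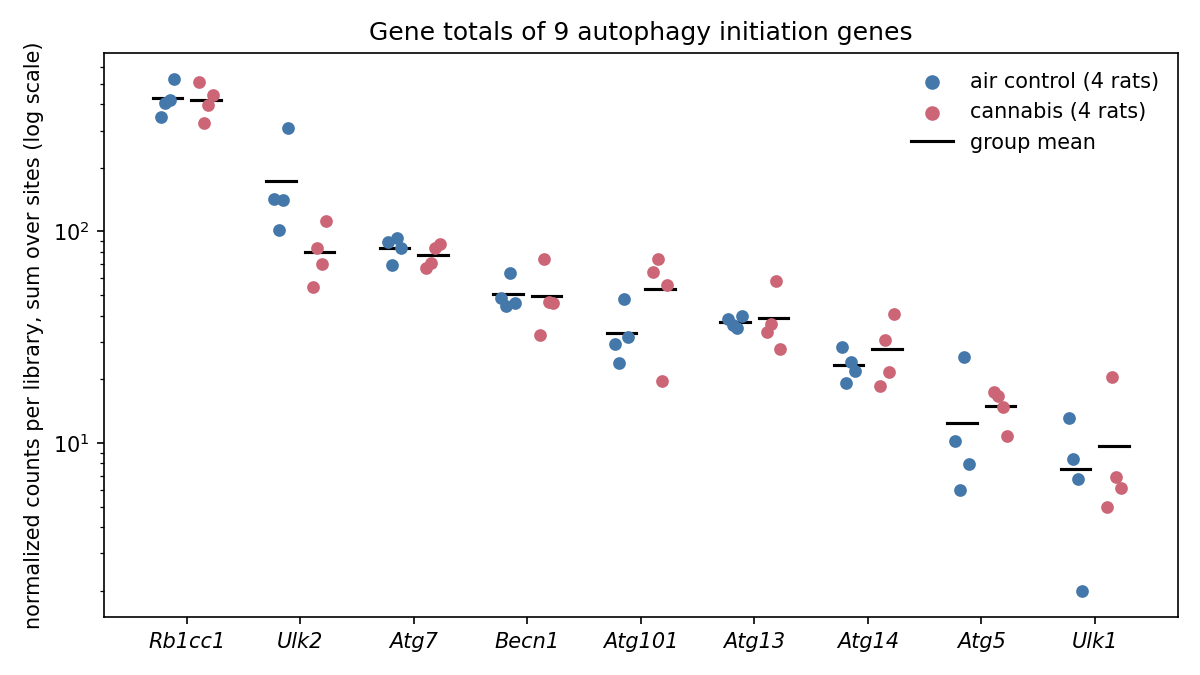
Points give the summed normalized counts of each gene in each library on a log axis, for 4 air controls and 4 exposed rats, with a line at each group mean and genes in order of their mean. Ulk2 totals run from 102 to 308 in controls and from 54.6 to 112 in exposed rats, and the groups of all 9 genes overlap.

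The order of the 9 levels was compared within libraries, over both groups together. Each read marks 1 transcript end, so levels of different genes were compared without division by length. From the highest mean total over 8 libraries, the order was Rb1cc1 (422 normalized counts), Ulk2 (127), Atg7 (80.5), Becn1 (50.1), Atg101 (43.3), Atg13 (38.1), Atg14 (25.7), Atg5 (13.6) and Ulk1 (8.60). Since the level of Ulk2 in exposed rats was part of what chose it, its place is described without a test. Rb1cc1 was above Ulk2 by 1.40 ± 0.51 on the log2 scale in controls and by 2.40 ± 0.58 in exposed rats, and Ulk2 above Atg7 by 0.92 ± 0.64 and by 0.01 ± 0.34 (SD, n = 4). Among the 8 genes other than Ulk2, 3 of the 7 neighbouring pairs differed by a two-sided exact permutation test that flips signs within libraries, after Benjamini-Hochberg adjustment over the 7 pairs. Rb1cc1 was above Atg7 by 2.37 ± 0.31 on the log2 scale (SD, n = 8), in 8 of 8 libraries (exact P = 0.00781, the smallest that 8 libraries allow, adjusted P = 0.0365). Atg7 was above Becn1 by 0.70 ± 0.35 in 7 of 8 libraries, and Atg14 above Atg5 by 0.94 ± 0.70 in 7 of 8 (exact P = 0.0156 and adjusted P = 0.0365 for each). Becn1 and Atg101, Atg101 and Atg13, Atg13 and Atg14, and Atg5 and Ulk1 were not separated, with adjusted P of the exact test from 0.0684 to 0.813. With any 1 library left out, none of the 7 pairs passed, and the smallest P that 7 libraries allow is 0.0156. After adjustment over the 7 pairs, no pair can pass at that P by itself, however large its difference.

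The number of sites ranged from 1 to 14 over the members. Ulk2 with 14 sites and Rb1cc1 with 13 were among the 3.12% and 3.72% of gene symbols with at least that many, where the median gene symbol had 2. Ulk1 and Atg101 had 1 site each. Of the 7 members with at least 2 sites, 5 had a site with over 50% of the gene's counts, on the means over all libraries, the exceptions being Ulk2 (45.1%) and Atg13 (19.5%). For Ulk2, site 1 was 60.2% of the mean total in controls and 12.6% in exposed rats. By library, its share was over 50% in air control replicates 1 (59.0%) and 4 (74.2%). It was under 50% in air control replicates 2 (44.7%) and 3 (41.9%) and in every exposed rat. Over all 10977 gene symbols with at least 2 sites, 72.1% had such a site. The share of the gene did not overlap between groups at 4 of the 52 sites of these 7 members, namely Ulk2 sites 1 (lower in exposed rats) and 3 (higher), Atg14 site 1 (higher) and Rb1cc1 site 11 (higher), where 2.04% of all sites did not (genes with at least 2 sites and reads in every library). Shares of 1 gene depend on each other, and the comparison is the one that chose the list. These sites were named after their values were seen. Ulk2 site 3, Atg14 site 1 and Rb1cc1 site 11 rest on 77, 176 and 34 reads over all libraries. No counting intervals were computed for their shares. At Rb1cc1 site 11 the highest control share was 0.84% and the lowest exposed share 0.87%.

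The gene totals that tracked Ulk2 site 1 most closely over the 8 libraries were those of Adssl1, an enzyme of the purine nucleotide cycle (Pearson's r = 0.92), Th, the rate-limiting enzyme of dopamine synthesis (r = 0.91), C1ql1, a secreted synaptic protein (r = 0.91), Slc6a3, the dopamine transporter (r = 0.89), and RGD1566099 (r = 0.88). They were taken from 6103 gene totals with a mean of at least 50 normalized counts. Each of the 5 was lower on average in exposed rats, and in 3 of them the groups did not overlap, so these correlations share the contrast by which Ulk2 was chosen. The closest totals to the Ulk2 total were Tp73 (r = 0.97), Aff2 (r = 0.92), Kcnh1 (r = 0.91), Chd1l (r = 0.90) and Gdpd1 (r = 0.90). Like the Ulk2 total, all 5 were highest in air control replicate 4, the library with the fewest reads. Of the members at that level, Atg7 had r = 0.53 with Ulk2 site 1, Rb1cc1 0.18 and Becn1 0.13.

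The wider pathway gave no call on gene totals in limma, where 0.278% of all gene totals were under 0.01. A count of 0 is near that share, so nothing is read from it. Of 50 other autophagy genes listed, 49 were measured; 1 of them, Wipi2, is also on the list of sites the study chose from these samples. In all, 0 of 49 had unadjusted P under 0.01 in limma, with 2 under 0.05 where 2.41% of all gene totals passed. On the recovered reads edgeR gave 0 and DESeq2 gave 1 (Pik3r4) under 0.01, and both gave 2 under 0.05. Of all 18003 gene totals, edgeR put 54 under 0.01 and 454 under 0.05, and DESeq2 70 and 382. The totals were higher on average in exposed rats for 27 genes and lower for 22, with a median log2 difference of 0.05, beside 0.05 over all gene totals. The smallest adjusted P was 0.999 in limma, where 0.00555% of all gene totals had an adjusted P under 0.1.

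By role, the 6 genes of the lipid kinase complex and its regulators had 4 higher and 2 lower, with a median log2 difference of 0.42 and a range from -0.23 to 1.18. The 12 upstream kinase and mTOR pathway genes had log2 differences from -0.67 to 0.21, with 6 on each side. The 9 further conjugation genes had 7 higher and 2 lower, with a median of 0.35 and a range from -0.51 (Atg3, an LC3-conjugating enzyme) to 0.40 (Atg4a, a protease that processes Atg8 proteins), both named after their values were seen as the ends of that range. The 8 genes of membrane supply ranged from -0.67 to 0.33, the 5 Atg8 family genes from -0.43 to 0.23, the 4 cargo receptors from -0.09 to 0.24 and the 5 lysosomal genes from -0.48 to 0.40. None of these passed the test.

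The smallest P in the pathway were in genes that work beside the members. Pik3r4, the regulatory subunit that holds the lipid kinase on Beclin 1, had 189, 220, 183 and 189 normalized counts in controls and 271, 242, 273 and 336 in exposed rats. The groups did not overlap in 3 of the 49 genes (Pik3r4, Wdr45 and, from 31.1 to 43.7 in controls and 45.8 to 61.0 in exposed rats, Atg4c), where 1.98% of all gene totals did not. For Pik3r4 all 4 exposed rats were above all controls, a separation that 1.19% of all gene totals had in this direction, with a log2 difference of 0.51 (standard error 0.19, adjusted P = 0.999 in limma). Pik3c3, the lipid kinase itself, was near the detection limit, with from 0 to 4.03 normalized counts in controls and from 3.07 to 6.21 in exposed rats (log2 difference 1.18, standard error 0.59, adjusted P = 0.999 in limma). Wdr45, a protein that binds the lipid made by that kinase, had 51.2, 40.7, 26.9 and 29.8 in controls and 17.4, 26.6, 22.6 and 23.0 in exposed rats. The highest exposed value of Wdr45 was just under the lowest control, a separation that 0.783% of all gene totals had in this direction, and the log2 difference was -0.67 (standard error 0.31, adjusted P = 0.999 in limma). The plot of the wider pathway shows how these 3 lie among the other genes.

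**Figure D4:**
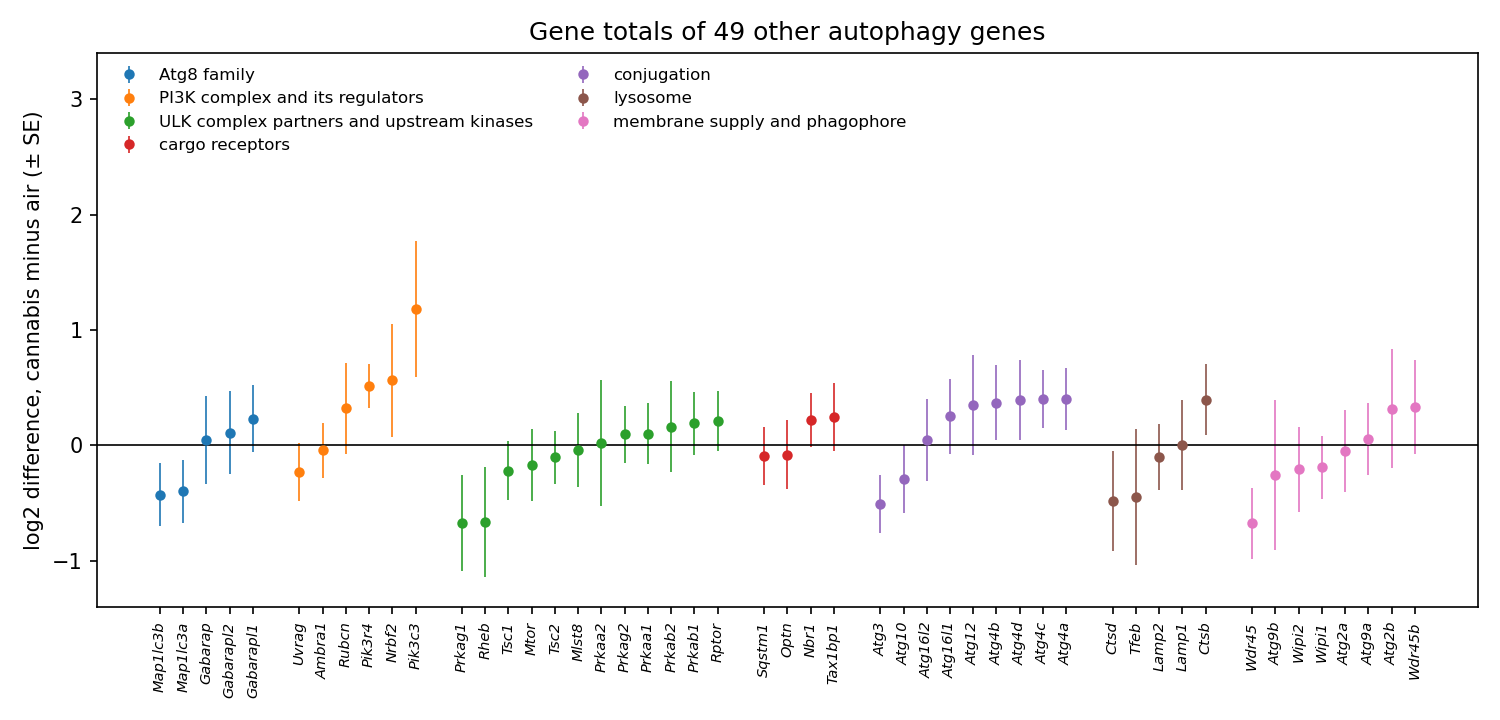
Each point is the log2 difference of a gene total, cannabis minus air, with its standard error from limma (vertical), for 49 autophagy genes grouped by role along the horizontal axis. Values run from -0.67 (Wdr45) to 1.18 (Pik3c3), with 27 genes above 0 and 22 below.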

How the data were processed

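Sample groups and replicate numbers were taken from the titles: air controls 1 to 4 and cannabis replicates 1, 2, 3 and 5, each a separate rat. The authors filtered the reads, trimmed leading Ts, mapped them to Rnor_6.0 with TMAP, grouped nearby read ends as 1 APA site, dropped sites under 16 reads and assigned genes with Cuffcompare. The deposited values are a signal, normalized counts that the authors made with DESeq2 size factors, with each library in its own file and nothing pooled. The 8 files were joined by row order, since their symbol columns were identical. All values (100% within 0.001 reads) were whole multiples of the value of 1 read, which gave back the reads. Gene totals are sums over sites with the same symbol; the 34043 sites without one held 13.9% of reads and were used only in the fit of sites.

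Sites and gene totals were each fitted as whole tables with limma 3.58.1 (lmFit, eBayes with trend, R 4.3.3) on log2(normalized count + 1), cannabis against air, two-sided, without covariates, with Benjamini-Hochberg adjustment. The added 1 shrinks differences between low values, but where a group holds values of 0 the difference depends on the added count. At Ulk2 site 1 it was -5.37 with 0.5 added and -3.31 with 5 added. The fits of recovered reads gave smaller differences there than limma, -3.15 with edgeR and -3.35 with DESeq2. Thresholds were those of the study, 0.01 (P) and 0.1 (adjusted P). Alternatives were a pseudocount of 0.5 or 5, a minimum mean of 10 normalized counts, equal library totals, edgeR 4.0.16 and DESeq2 1.42.0 on the recovered reads, the replicate number as a block and each library left out. The fits were tested on simulated reads with a fixed spread and with changes only in well-read features. Changes at low sites, and a group with 1 library apart as at Ulk2 site 1, were not covered. Named were all members, in each the site with the highest mean and any with P under 0.01, the 3 other autophagy genes with the smallest P, and the 5 gene totals most correlated with the Ulk2 total and with its site 1. The members and gene lists were chosen with earlier results of these data known. Group values are means ± SD. Other steps ran in Python 3.11.15 with scipy 1.17.1, matplotlib 3.10.9, pandas 2.3.3 and numpy 2.4.6. Site positions and the sequences around them were not analysed here.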

Additional observations from a re-analysis of the deposited data

Results flagged for a closer look

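In 3 of 38 groups of 4 checked, 1 library stood apart from the rest by Dixon's criterion, where chance flags about 1 in 20. Cannabis replicate 5 had 39.2 normalized counts at Ulk2 site 1, where the other exposed rats had from 0 to 1.33. Cannabis replicate 2 had 20.6 normalized counts for Ulk1, where the others of its group had from 4.97 to 6.89. Air control replicate 2 had a Pik3r4 total of 220 normalized counts, against 183 to 189 in the remaining controls.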

How the results depend on the processing

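The log2 difference at Ulk2 site 1 was negative in all 15 alternatives, from -6.02 without cannabis replicate 5 to -3.15 with edgeR on the recovered reads, and -6.02 to -4.24 with each library left out. The Ulk2 total ranged from -1.24 to -0.71 with each library left out, and was 0.0245 without site 1, an alternative chosen after seeing the data. The 1 member site with P under 0.01 in limma was 1 in each fit with a library left out and 0 with DESeq2. The wider pathway count of 0 was 1 with DESeq2, 2 at P under 0.05 (chosen after seeing the data), and 0 in each fit with a library left out. Of the 98356 sites, 375 had P under 0.01; a mean of at least 10 gave 44, the replicate block 229, and leaving out single libraries 227 to 617. The low counts came without cannabis replicate 5 (227) and without air control replicate 1 (231), the high ones without cannabis replicate 1 (594) and without air control replicate 3 (617). The split of 121 higher and 254 lower turned to 141 and 90 without air control replicate 1 and was 66 and 244 with DESeq2. Of the gene totals, 50 did, against 29 with that minimum, 24 with the replicate block and from 30 to 90 with libraries left out (30 without air control replicate 1, 31 without cannabis replicate 5, 84 without air control replicate 3, 90 without cannabis replicate 1). The number of neighbouring levels that differed was 3 of 8 with Ulk2 among the genes and 3 with equal totals. It was 3 of 7 without Ulk2 (chosen after seeing the data) and 0 to 0 with any library left out. With 7 libraries no pair can pass by itself, so these counts of 0 do not measure how stable the order is. The 7 members with over 50% of their counts on 1 site, single-site genes included, were 7 to 7 with a library left out. The other member totals and the most used site of each other gene moved by less than 1 SD (the remaining member sites were not run one by one), and the totals of Rb1cc1, Becn1, Atg13, Atg14 and Ulk1 changed sign in some settings. The minimum mean of 10 left no value for Ulk1, Pik3c3 or Atg13 site 1.

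Replicate numbers 1, 2 and 3 occur in both groups, but the labels do not say that they mark a shared litter or day, and deviations of same-numbered libraries correlated at -0.23, 0.08 and -0.003 over sites with a mean of at least 10, so the numbers were not taken as pairs. The replicate block draws its difference from replicates 1, 2 and 3 only, since air control replicate 4 and cannabis replicate 5 have no partner. It therefore leaves out the exposed rat closest to the controls at Ulk2 site 1. With this block, Ulk2 site 1 was at -5.55 and the Ulk2 total at -0.88 on the log2 scale. The cause of these differences was not tested. Ulk1, Atg5 and most single sites rest on few reads, which limits the difference that could be seen.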
